A study of Homo sapiens with 2 samples.

Results

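Interleukins, chemokines, colony-stimulating factors and their receptors were described in MDA-MB-231 cells, an established human line of triple-negative breast cancer. The genes were 36 named cytokines, receptors and inflammatory enzymes. They were listed by name, with earlier results of these data known. Platform annotation assigned 78 of the 54675 probe sets to exactly 1 of them, covering 35 of the 36 genes out of 19775 named genes in all. CSF2 was not analysed here.

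The siKMO array came from cells transfected with siRNA against KMO, and the siControl array from cells that received a control siRNA. Both cultures were of the same line, were transfected with the DharmaFECT reagent and had 48 h of exposure, and total RNA was hybridised to Affymetrix U133 Plus 2.0 arrays. KMO encodes kynurenine 3-monooxygenase, a mitochondrial enzyme of tryptophan breakdown, and the title of the study concerns its part in tumour progression. Each condition has 1 array, so the differences given below have no replicate check, none was tested, and each describes this pair of cultures. The array names carry shLUC and shK421, strings used for hairpin constructs, whereas titles and genotype labels say siRNA, so the construct is not settled.

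Cytokines are secreted proteins that carry signals between cells. Interleukin-1 proteins act through IL1R1 and IL1RAP to switch on the transcription factor NF-kappaB, which in turn drives many genes for interleukins and chemokines. Members of the interleukin-6 family share the receptor chain gp130, encoded by IL6ST, and signal through JAK kinases and STAT3. Chemokines steer cell movement, and those with the ELR motif attract neutrophils. MDA-MB-231 cells are known to secrete interleukin-6 and interleukin-8.

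The promoters of the 4 ELR chemokine genes with a level near or above 6, and those of IL6 and IL11, are shown because their genes differed to unlike extents or in opposite directions between the arrays. Each run is 300 bases of RefSeq sequence on build GRCh38.p14, reaching from 250 bases before the annotated start site to 50 bases after it, written 5′ to 3′ on the strand of the gene. Capitals mark matches on either strand to GGNNTTTCC, a form of the NF-kappaB site, or to TGANTCA, a form of the AP-1 site; no matches overlapped.
CXCL1 (chr4:73869143-73869442, plus strand): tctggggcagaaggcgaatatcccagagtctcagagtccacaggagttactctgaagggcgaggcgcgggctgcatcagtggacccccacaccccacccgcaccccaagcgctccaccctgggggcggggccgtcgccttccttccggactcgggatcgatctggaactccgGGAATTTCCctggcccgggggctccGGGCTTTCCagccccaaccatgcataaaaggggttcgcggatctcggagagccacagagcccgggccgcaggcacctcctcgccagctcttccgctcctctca
CXCL2 (chr4:74099146-74099445, minus strand): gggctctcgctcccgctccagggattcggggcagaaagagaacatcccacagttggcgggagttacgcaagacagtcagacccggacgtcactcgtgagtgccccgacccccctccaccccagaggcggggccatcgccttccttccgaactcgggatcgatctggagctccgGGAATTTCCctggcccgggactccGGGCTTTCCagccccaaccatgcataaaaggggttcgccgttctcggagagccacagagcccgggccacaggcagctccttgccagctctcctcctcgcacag
CXCL3 (chr4:74038640-74038939, minus strand): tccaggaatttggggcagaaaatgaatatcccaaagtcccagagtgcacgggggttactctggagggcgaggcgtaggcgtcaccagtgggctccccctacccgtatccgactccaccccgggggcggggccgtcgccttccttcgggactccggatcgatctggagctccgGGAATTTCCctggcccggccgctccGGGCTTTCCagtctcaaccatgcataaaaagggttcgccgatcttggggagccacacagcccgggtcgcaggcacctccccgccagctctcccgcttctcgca
CXCL8 (chr4:73740319-73740618, plus strand): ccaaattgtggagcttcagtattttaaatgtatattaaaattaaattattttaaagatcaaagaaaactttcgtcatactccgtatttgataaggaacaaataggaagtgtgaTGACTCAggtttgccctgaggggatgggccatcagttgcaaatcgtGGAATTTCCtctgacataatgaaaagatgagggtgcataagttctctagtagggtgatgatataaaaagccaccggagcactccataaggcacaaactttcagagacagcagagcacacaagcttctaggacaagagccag
IL6 (chr7:22726950-22727249, plus strand): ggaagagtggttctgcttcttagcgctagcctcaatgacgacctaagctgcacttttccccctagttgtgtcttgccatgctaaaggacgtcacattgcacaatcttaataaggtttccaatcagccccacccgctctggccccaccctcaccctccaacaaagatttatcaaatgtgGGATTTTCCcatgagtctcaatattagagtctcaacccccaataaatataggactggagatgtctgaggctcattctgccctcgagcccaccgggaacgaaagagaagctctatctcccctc
IL11 (chr19:55370414-55370713, minus strand): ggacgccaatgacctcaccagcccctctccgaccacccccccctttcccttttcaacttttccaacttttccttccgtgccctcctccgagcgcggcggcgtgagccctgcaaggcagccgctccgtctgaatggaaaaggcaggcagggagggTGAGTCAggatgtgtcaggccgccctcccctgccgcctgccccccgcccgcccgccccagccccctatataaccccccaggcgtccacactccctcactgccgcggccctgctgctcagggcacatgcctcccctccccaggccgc

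Promoter windows of CXCL1, CXCL2 and CXCL3 each held the same pair of NF-kappaB matches, GGAATTTCC and GGGCTTTCC. The first began 78 bases before the start site in CXCL1 and CXCL3 (position -78) and at -77 in CXCL2, and the second began at -53 in all 3. Over a global alignment, the CXCL1 window was identical to that of CXCL3 in 82.5% of columns and to that of CXCL2 in 69.8%. CXCL8 had GGAATTTCC at -91 and the AP-1 match TGACTCA at -137, and its window was identical to that of CXCL1 in 43.1% of columns. IL6 had GGATTTTCC at -72, and IL11 had the AP-1 match TGAGTCA at -96. RefSeq windows were on hand for 28 of the 36 genes. An NF-kappaB match lay in a window of 12 of the 28, against 7.61% of 27305 genes. An AP-1 match lay in a window of 5 of the 28, against 9.37% of genes. The 28 genes had 43 windows, some of which overlapped and held the same match. Counted by window, 6.26% of all 35116 windows held an NF-kappaB match and 7.71% an AP-1 match, which are not set against the gene counts. IL24, IL1B and CCL5, called 2-fold lower below, were not among the genes with either match, and not every gene had a window. Such a match describes letters in a window and does not show that a factor binds there.

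Levels are log2 values from robust multi-array averaging (RMA), so a difference of 1 is 2-fold, and all differences are siKMO minus siControl. Such values have no true zero, and a weak transcript sits at a background level. Each gene was read with the probe set of highest mean level, and genes whose mean reached 6 are called measured. Of the 35 genes with a probe set, 20 were measured. Of the other 15, 9 lay under 6 in both arrays and 6 were above 6 in the siControl array alone. Where 1 array lay under 6, a fold is given as a lower bound with the weaker level taken as 6. Counts of genes past a fold use the levels as they stand unless stated otherwise. Levels of different probe sets are not compared, since each has its own probe affinity.

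The line and the arrays gave the following checks. Vimentin (VIM), CD44, EGFR, CAV1, KRT8 and KRT18, which this line expresses, stood between 9.84 and 13.0 in the siKMO array and between 9.76 and 12.9 in the siControl array. Of the 3 receptor genes that define triple-negative tumours, ESR1 and PGR were under 6 in both arrays. ERBB2 was measured at 7.37 in the siKMO array and 7.44 in the siControl array, but its other probe sets read 3.74 or lower in both. Of 7 leukocyte markers 0 were measured, with levels of 2.98 to 5.27 in the siKMO array and 3.28 to 5.19 in the siControl array. Of 4 endothelial markers 0 were measured, and of 5 fibroblast markers COL1A1 alone was. COL1A1 read 6.90 (siKMO) and 7.08 (siControl) with the probe set used and 6.08 (siKMO) and 6.31 (siControl) with another. Its remaining probe sets read 4.26 or lower in both arrays. KMO itself stood at 2.92, 2.51 and 2.35 with its 3 probe sets in the siKMO array and at 2.95, 2.37 and 2.11 in the siControl array, under the minimum throughout, so its values do not check the labels.

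Cytokine transcripts were mostly lower in the siKMO array, and every measured gene with a 2-fold difference was lower. Of the 20 measured genes, 15 were lower and 5 higher, where 44.1% of all measured genes were lower; 4 were lower by at least 2-fold, namely IL24, IL1B, IL11 and CCL5, and 0 were higher by that much. Over all 8997 measured genes, 1.39% were at least 2-fold lower and 0.856% at least 2-fold higher. At 1.5-fold, 8 of the 20 were lower and 2 higher, where 5.41% and 5.19% of all measured genes were lower and higher. The 15 lower genes include IL6ST and CSF1, whose measured probe sets differed in both directions. They also include SOD2, whose difference depends on the probe set chosen. The median difference was -0.33 over the 20 genes and 0.04 over all measured genes. Among the 11 measured ligands 9 were lower, with a median of -0.62, and among the 8 measured receptors 5 were lower and 0 differed by 2-fold, with a median of -0.10; the difference between ligands and receptors was not tested. In bulk RNA, fewer cells that make a transcript and less of it per cell cannot be told apart. CCL5 held its place among the 2-fold genes by a narrow margin, 2.01-fold with its levels as they stand. Its siKMO level lay under 6, so it is shown only to be at least 1.60-fold lower. It dropped out when levels under 6 were taken as 6 or when each array was centred on its median. IL11 dropped out when the probe sets of each gene were averaged, with a difference of -0.76.

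**Figure D1:**
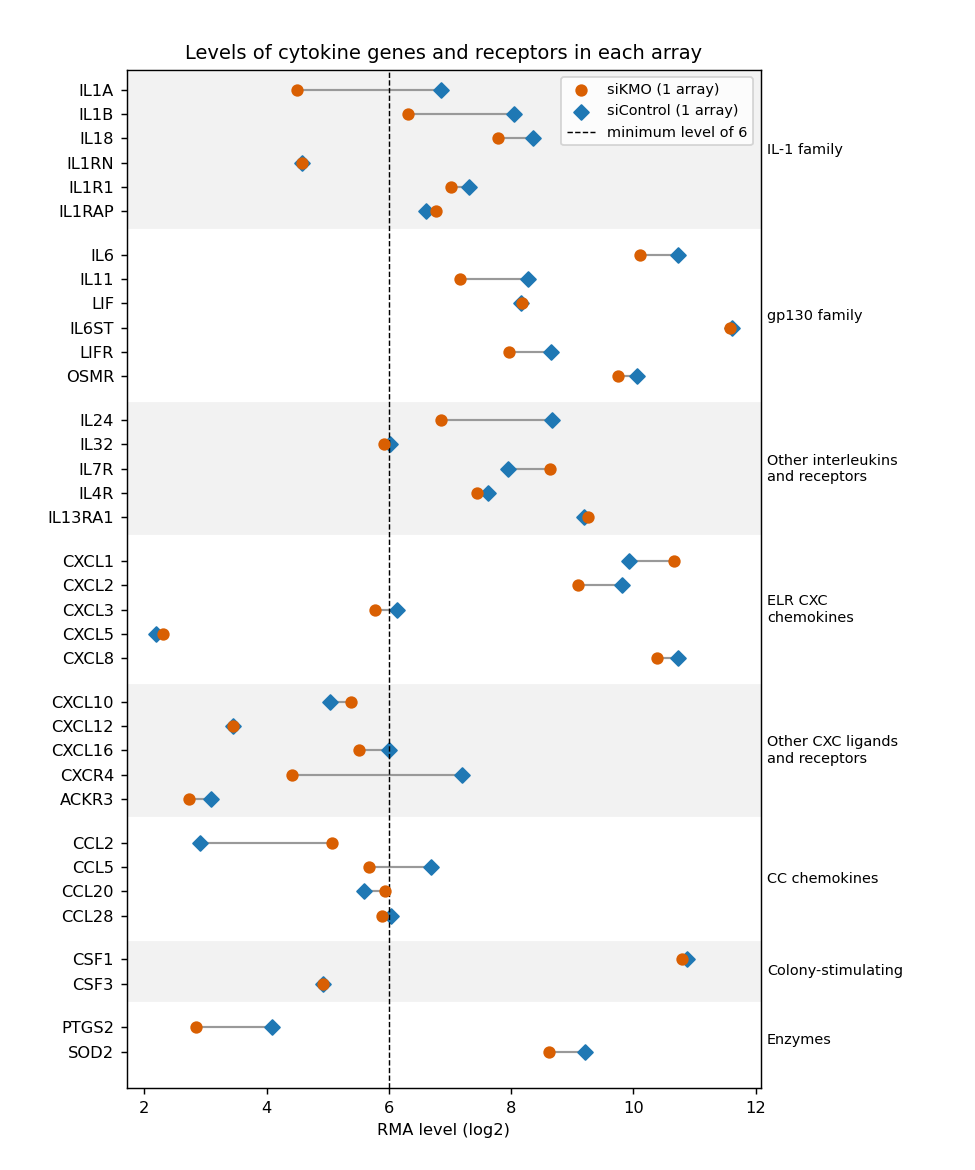
RMA level (log2, x axis) of 35 cytokine, receptor and enzyme genes (y axis, grouped by role) in the siKMO array (orange circles) and the siControl array (blue diamonds), 1 array each, with no error bars because there are no replicates. Among genes with a mean of at least 6, the siKMO point lies left of the siControl point by a log2 difference of 1 or more for IL1B, IL11, IL24 and CCL5. Among genes with a mean under 6 the plotted gap is as wide to the left for IL1A, CXCR4 and PTGS2 and to the right for CCL2. Points under 6 were not told apart from background.

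**Figure D2:**
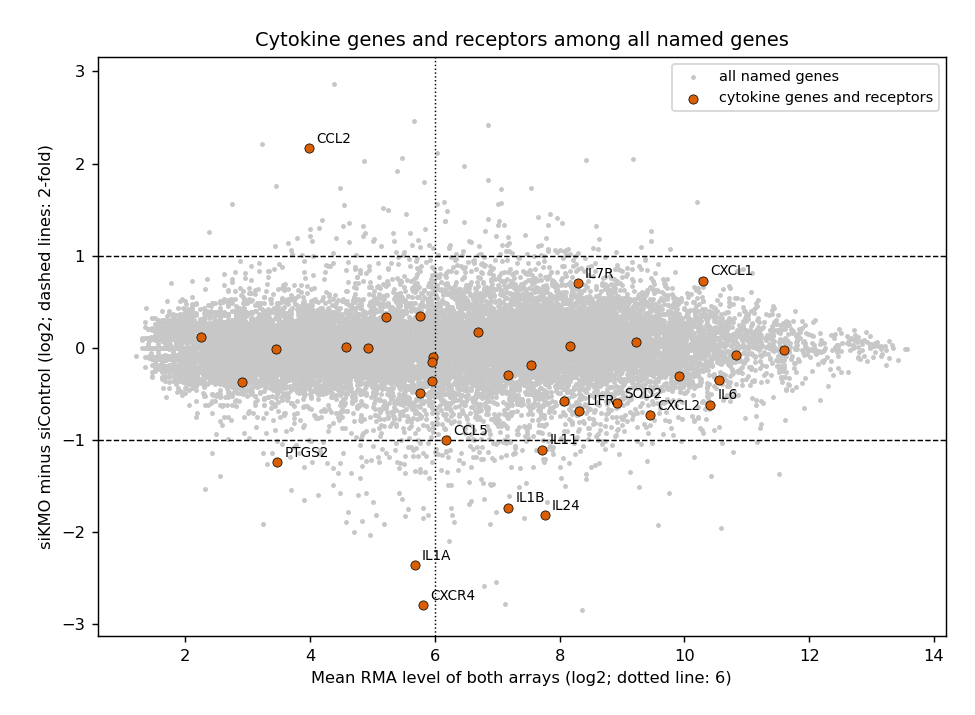
Difference between the arrays (siKMO minus siControl, log2, y axis) against mean RMA level (log2, x axis) for all named genes (grey points) and for the cytokine genes and receptors (orange points), labelled where they differ by at least 1.5-fold. IL24 and IL1B lie at -1.81 and -1.73, while CXCL1 and IL7R lie at 0.73 and 0.70.

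Both interleukin-1 agonists were lower in the siKMO array. IL1B, the secreted fever-inducing cytokine interleukin-1 beta, stood at 6.31 in the siKMO array and 8.05 in the siControl array with one probe set and at 6.09 (siKMO) and 7.73 (siControl) with the other. That is 3.33-fold and 3.13-fold lower, and its difference was the 15th lowest of the 8997 measured genes. IL1A, which encodes the cell-associated alarm signal interleukin-1 alpha and is the neighbour of IL1B on chromosome 2, stood at 4.50 in the siKMO array and 6.86 in the siControl array with one of its probe sets. Its mean lay under the minimum, so the value is a bound of at least 1.81-fold lower. The other IL1A probe set read 3.87 (siKMO) and 3.73 (siControl), under 6 in both arrays.

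The rest of the interleukin-1 system differed less. IL18, a relative of IL1B that is cut into its active form by caspase-1, stood at 7.78 in the siKMO array and 8.36 in the siControl array, a difference of -0.58. The signalling receptor IL1R1 stood at 7.02 (siKMO) and 7.32 (siControl), and its co-receptor IL1RAP at 6.77 (siKMO) and 6.60 (siControl). Neither receptor chain differed by 1.5-fold with these probe sets. A weaker IL1RAP probe set read 5.41 in the siKMO array and 4.61 in the siControl array, both under 6. IL1RN, the natural receptor antagonist, lay under 6 with all 5 of its probe sets, as did the decoy receptor IL1R2 at 3.42 (siKMO) and 3.60 (siControl).

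In the interleukin-6 family, IL11 and IL6 were lower while LIF was nearly equal between arrays. IL11, a cytokine of bone and blood cell formation, stood at 7.16 in the siKMO array and 8.27 in the siControl array, 2.15-fold lower and 88th lowest of all measured genes. Its second probe set gave 6.23 (siKMO) and 6.65 (siControl), a difference of -0.42, so the size of the IL11 difference depends on the probe set. IL6, the acute-phase cytokine, stood at 10.11 in the siKMO array and 10.73 in the siControl array, 1.53-fold lower with its single probe set. LIF, which acts through LIFR and gp130, stood at 8.18 (siKMO) and 8.16 (siControl), a difference of 0.02.

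Of the receptors of that family, LIFR and OSMR were lower, and the shared chain had probe sets of both signs. LIFR stood at 7.97 in the siKMO array and 8.65 in the siControl array, 1.60-fold lower, whereas a second probe set above the minimum differed by -0.16. OSMR, which pairs with gp130 to bind oncostatin M and lies next to LIFR on chromosome 5, differed by -0.31, -0.61 and -0.46 over its 3 probe sets, all in one direction. IL6ST stood at 11.58 (siKMO) and 11.61 (siControl) with its strongest probe set, a difference of -0.03, and 3 further measured probe sets differed by 0.13 to 0.31, so its direction was not settled. The ligand-binding chains IL6R and IL11RA were under 6 in both arrays, at 4.50 (siKMO) and 4.50 (siControl) for IL6R and at 5.06 (siKMO) and 5.56 (siControl) for IL11RA, and so was the ligand OSM at 4.29 (siKMO) and 4.36 (siControl).

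IL24 had the lowest difference of the 20 measured genes. This cytokine of the interleukin-10 family stood at 6.85 in the siKMO array and 8.66 in the siControl array, 3.52-fold lower, and ranked 11th lowest of all measured genes. A single probe set reads it, so no second reading of the transcript was on hand. All 3 chains of its receptors lay under 6: IL20RA at 2.93 in the siKMO array and 3.16 in the siControl array, IL20RB at 3.69 (siKMO) and 3.90 (siControl), and IL22RA1 at 4.08 (siKMO) and 4.43 (siControl).

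IL7R went the other way. This receptor chain for interleukin-7 and thymic stromal lymphopoietin stood at 8.64 in the siKMO array and 7.94 in the siControl array with one probe set, and at 7.81 (siKMO) and 6.93 (siControl) with the other. Both readings were higher in the siKMO array, by 1.63-fold and 1.83-fold, and the difference of the first was the 262nd highest of all measured genes. Its partner chains IL2RG and CRLF2 and its ligands IL7 and TSLP were all under 6 in both arrays. The receptors for interleukin-4 and interleukin-13 differed little: IL4R by -0.18 and IL13RA1 by 0.07 to 0.36 over 4 probe sets. IL32, a cytokine without a mouse counterpart, stood at 5.92 (siKMO) and 6.02 (siControl), next to the minimum in both arrays.

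The ELR chemokines did not share a direction. CXCL1 stood at 10.66 in the siKMO array and 9.94 in the siControl array, 1.66-fold higher, and its difference was the 236th highest of all measured genes. CXCL2 stood at 9.09 in the siKMO array and 9.82 in the siControl array, 1.66-fold lower. Its other probe sets read 5.25 (siKMO) and 5.44 (siControl), and 1.92 in both arrays, all under 6. CXCL3 read 5.78 (siKMO) and 6.14 (siControl) with its only probe set, its mean just under the minimum. With its siKMO level taken as 6, the CXCL3 difference was -0.14, a bound. CXCL1 and CXCL2 thus differed by 0.73 and -0.73, and their promoter windows, shown above, carried the same pair of NF-kappaB matches. They are near-identical paralogs, and the CXCL2 probe set, whose name ends in _x_at, is of the type whose probes can bind related transcripts, so the split between CXCL1 and CXCL2 is uncertain. CXCL8, which encodes interleukin-8, differed by -0.35 and -0.37 with its 2 probe sets, at 10.38 in the siKMO array and 10.73 in the siControl array with the stronger one. CXCL5 was under 6 with all 3 probe sets, and so were the receptors of these ligands, CXCR1 at 5.43 (siKMO) and 5.57 (siControl) and CXCR2 at 1.93 in both arrays.

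**Figure D3:**
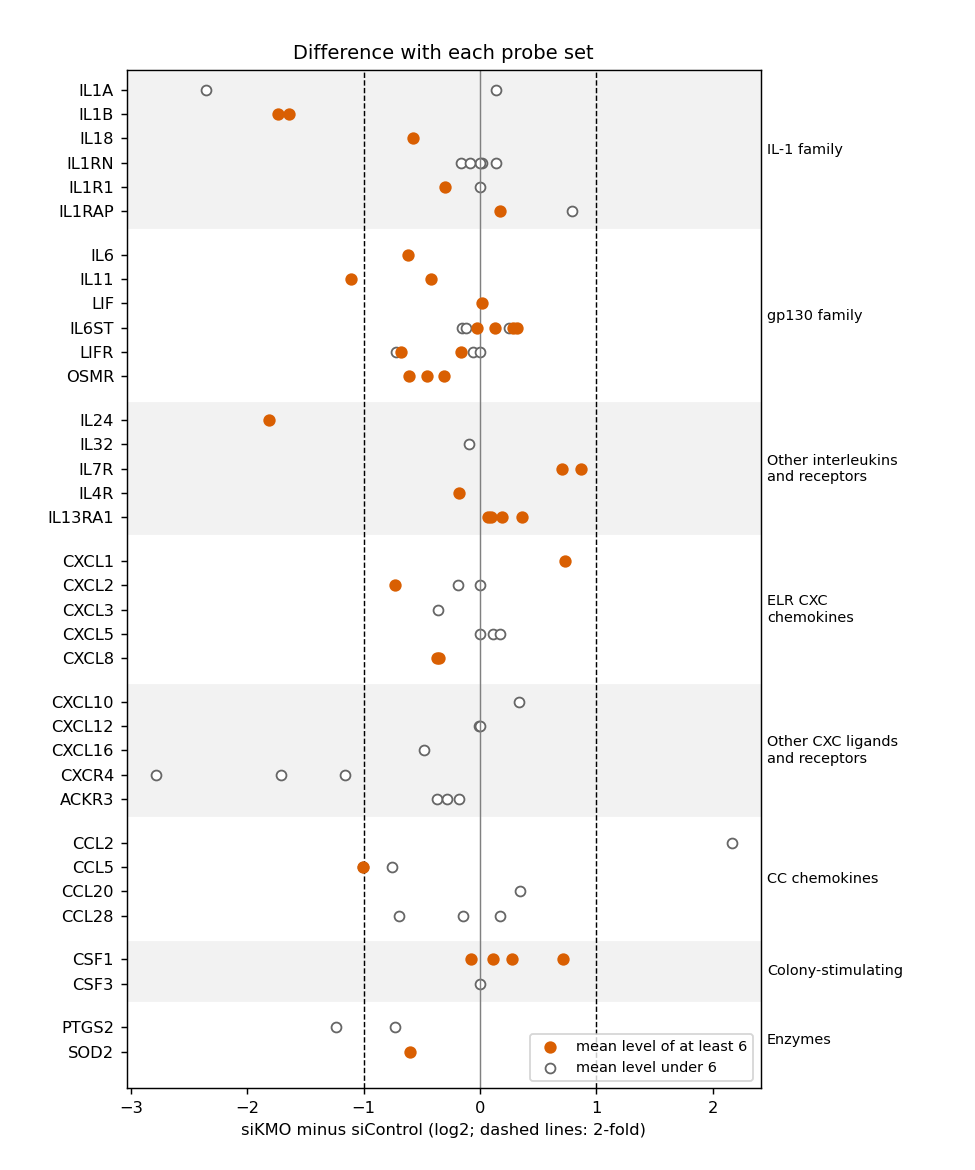
Difference between the arrays (siKMO minus siControl, log2, x axis) for each of the 78 probe sets (points) of the genes on the y axis; filled points have a mean level of at least 6 and open points a mean under 6. Both IL1B probe sets lie at -1.64 or lower, all 3 CXCR4 probe sets lie below -1 but are open points, and the 4 filled CSF1 points run from -0.08 to 0.72.

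CXCR4, the receptor for CXCL12 and a mediator of breast cancer cell homing, was lower with each of its 3 probe sets, although all had means under the minimum. It stood at 4.41 in the siKMO array and 7.20 in the siControl array with one probe set, at least 2.30-fold lower. The others read 4.78 (siKMO) and 6.49 (siControl), at least 1.41-fold lower, and 5.21 (siKMO) and 6.37 (siControl), at least 1.29-fold lower. Every CXCR4 reading was thus above 6 in the siControl array and below it in the siKMO array. With genes kept where either array reached 6 and differences taken as they stand, IL1A and CXCR4 joined the 4 above. That made 6 of 26 cytokine genes, where 1.7% of 9283 genes were 2-fold lower. The cytokine genes this rule added were above 6 in the siControl array alone. They could therefore only come out lower, and nothing is concluded from this count. With the bounds in place of these differences, IL1A (at least 1.81-fold) and CCL5 (at least 1.60-fold) are not shown to reach 2-fold. CXCL12, the ligand of CXCR4, stood at 3.45 (siKMO) and 3.46 (siControl), under 6. The scavenging receptor ACKR3, which also binds CXCL12, stood at 2.73 (siKMO) and 3.10 (siControl), under 6 too. CXCL10, an interferon-induced chemokine, read 5.38 in the siKMO array and 5.04 in the siControl array, and CXCL16, a membrane-anchored chemokine, read 5.52 in the siKMO array and 6.005 in the siControl array.

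Among the CC chemokines, CCL5 alone was measured, and it was lower. CCL5, which attracts T cells and monocytes, stood at 5.68 in the siKMO array and 6.68 in the siControl array with the probe set used, at least 1.60-fold lower. The other readings were 4.83 (siKMO) and 5.59 (siControl), and 4.47 (siKMO) and 5.47 (siControl), under 6 in both arrays and of the same sign. CCL2, the monocyte attractant, read 5.07 in the siKMO array and 2.90 in the siControl array, but both values are under 6 and no fold is given. CCL20 stood at 5.94 (siKMO) and 5.59 (siControl), and CCL28 at 5.88 (siKMO) and 6.03 (siControl).

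Of the colony-stimulating factors, which direct the growth of myeloid cells, CSF1 alone was measured. CSF1, the macrophage growth factor, stood at 10.79 in the siKMO array and 10.87 in the siControl array with its strongest probe set. Its other 3 probe sets differed by 0.11, 0.27 and 0.72, the last at 6.36 (siKMO) and 5.64 (siControl), so the sign of the CSF1 difference was not settled. CSF3, the granulocyte factor, had the same value of 4.92, under 6, in both arrays. The CSF1 receptor was under 6, at 5.27 (siKMO) and 5.14 (siControl).

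Of the 2 enzymes, SOD2 was measured and PTGS2 was not. PTGS2, the inducible cyclooxygenase of prostaglandin synthesis, read 2.85 in the siKMO array and 4.10 in the siControl array, and 2.05 (siKMO) and 2.78 (siControl) with its other probe set, all under 6, so no direction or fold is given. SOD2, the manganese superoxide dismutase of mitochondria and a classic NF-kappaB target, stood at 8.61 in the siKMO array and 9.21 in the siControl array, 1.52-fold lower with the probe set assigned to it alone. The annotation gives 4 further probe sets to SOD2 together with the overlapping transcript SOD2-OT1. They differed by -0.03, 0.08, -0.69 and -0.12, and the strongest of them read 8.97 in the siKMO array and 9.01 in the siControl array. The SOD2 difference therefore rests on the probe set chosen.

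Readings from several probe sets describe how firmly a transcript was measured, not how the treatment varied between cultures. Of the 20 measured genes, 9 had at least 2 probe sets with a mean of 6 or more. In 7 of these (IL1B, IL11, LIFR, OSMR, IL7R, IL13RA1 and CXCL8) all such probe sets differed in one direction, and in IL6ST and CSF1 they differed in both. Of the 78 probe sets, 7 read the same in both cultures to the last digit, among them that of CSF3, as did 5171 of all 54675 probe sets.

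Genes around these cytokines were counted from fixed lists of related genes. Of 36 other interleukin ligands with a probe set 1 was measured, IL15, at 6.94 in the siKMO array and 7.41 in the siControl array. Of 26 other chemokines 2 were measured: CCL26, which attracts eosinophils, at 6.02 (siKMO) and 7.20 (siControl), and CX3CL1 at 6.61 (siKMO) and 7.11 (siControl). CCL26 was 2.27-fold lower with its single probe set and was the one measured gene past 2-fold in the 10 related lists. Over all 8997 measured genes, 1.39% were at least 2-fold lower and 0.856% at least 2-fold higher. At 1.5-fold the shares were 5.41% and 5.19%. At such shares a list of 1 to 21 measured genes can hold 0 of them, so counts of 0 do not set these lists apart. Of 19 other chemokine receptors 1 was measured, the chemerin-binding CCRL2, at 6.90 (siKMO) and 6.76 (siControl). Of 40 other interleukin receptors 9 were measured and 0 differed by 2-fold or 1.5-fold, led by CSF2RA at 0.28, IL1RAPL1 at -0.27 and IL27RA at 0.25.

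The signalling chains downstream of these receptors differed little as groups. Of 21 measured genes of interleukin-1 and NF-kappaB signalling, 0 differed by 2-fold, with a median of -0.05. Of these, 11 were lower (52.4%) and 9 higher, where 44.1% of all measured genes were lower. NFKBIZ, a nuclear cofactor that NF-kappaB needs for a set of late targets including IL6, stood at 9.36 in the siKMO array and 10.15 in the siControl array, 1.74-fold lower, and at 7.39 (siKMO) and 7.94 (siControl) with its other probe set. TOLLIP, an adaptor that restrains interleukin-1 signalling, differed by 0.50 and the kinase IRAK1 by 0.45. The subunits RELA and NFKB1 themselves differed by -0.05 and 0.26.

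Of 15 measured JAK-STAT genes 10 were lower (66.7%) and 0 differed by 2-fold, with a median of -0.13. Over all measured genes, 44.1% were lower. At 1.5-fold 2 of the 15 were lower and 0 higher, where 5.41% and 5.19% of all measured genes were lower and higher. SOCS2 is among the 2 only with its levels taken as they stand. SOCS3, a feedback inhibitor that STAT3 induces, stood at 7.34 in the siKMO array and 8.01 in the siControl array, 1.59-fold lower, while a second probe set differed by -0.32. SOCS2 read 5.67 (siKMO) and 6.34 (siControl), at least 1.27-fold lower, and SOCS7 differed by -0.50. STAT3 differed by -0.23, with 2 further measured probe sets at -0.27 and -0.18.

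Factors that act on cytokine messages and proteins gave the following values. ZFP36, which binds AU-rich elements of cytokine messages and promotes their decay, stood at 6.87 in the siKMO array and 7.76 in the siControl array, 1.85-fold lower. Its relative ZFP36L1 differed by -0.43 and the regulator RC3H2 by -0.37. Of the 10 measured genes of the decay list 6 were lower and 4 higher, where 44.1% of all measured genes were lower. ADAM10, a protease that sheds CXCL16 and CX3CL1 from the cell surface, was 1.85-fold lower, at 10.03 (siKMO) and 10.92 (siControl), with 2 further probe sets at -0.78 and -1.14. CASP1, which activates IL1B and IL18, differed by 0.53, and CASP4 by 0.29. Of the 8 measured genes of the processing list 2 were lower (25%, against the same 44.1%), 5 higher and 0 past 2-fold, with a median of 0.07. Of 5 measured prostaglandin genes (median 0.02) and 5 of superoxide removal (median -0.03), 0 differed by 1.5-fold. PTGES2 and PTGES differed by 0.36 and -0.35, PTGER4 by 0.24, PRDX3 by -0.36, SOD1 by 0.25 and CAT by 0.22. The other 9 prostaglandin genes were under the minimum. Among them, PTGS1 read 4.81 (siKMO) and 5.92 (siControl) with the probe set used. Another PTGS1 probe set read 4.15 (siKMO) and 6.45 (siControl), also with a mean under 6.

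**Figure D4:**
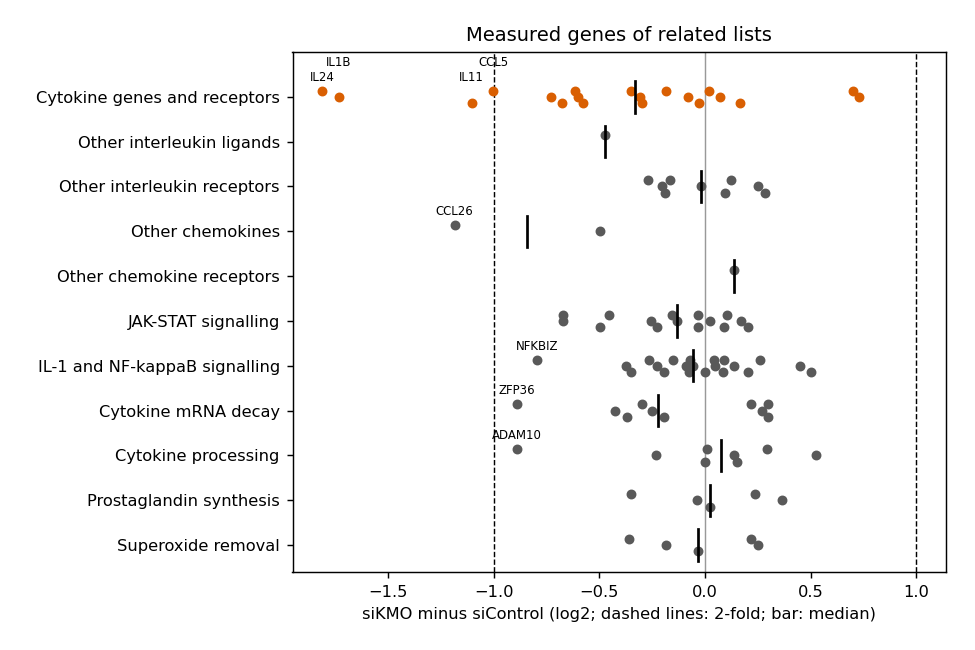
Difference between the arrays (siKMO minus siControl, log2, x axis) of each measured gene (points) in the cytokine group (orange, 20 genes) and in 10 related lists (dark grey); black bars are medians, and genes beyond 0.75 in either direction are named. The cytokine group has its median at -0.33, and the lists of interleukin-1 and NF-kappaB signalling and of JAK-STAT signalling have theirs at -0.05 and -0.13.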

How the data were processed

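The deposited log2 values were made by the authors with robust multi-array averaging (RMA) of Affymetrix U133 Plus 2.0 arrays, per the labels. Affymetrix Expression Console is listed in the submitters' processing notes, and its version and which arrays were normalized jointly were not given in the sources used here. RMA equalises the value distributions, whose sorted values differed by at most 0.064 here, so a shift of all transcripts cannot be seen. The 2 arrays (1 siKMO, 1 siControl) were grouped by genotype label. Probe sets were named by the platform annotation, in which 41097 carry 1 gene. Of these, 41043 were matched by gene identifier to a RefSeq table (GRCh38.p14), from which their symbol was taken. With 1 array a group no test was possible; the number of arrays limits the precision. All cytokine genes could be named, and of each related list those past 2-fold and otherwise the 3 with the largest difference; any other gene was named after its values were seen. The genes and lists were chosen with earlier results of these data known. The calculation was run on simulated arrays with noise of an assumed size. That checks the code and does not measure the spread between cultures or how firm the 2-fold differences are. Python 3.11.15, pandas 2.3.3 and Biopython 1.88 were used; promoters were aligned globally (match 1, mismatch -1, gap -3 and -0.5).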

Additional observations from a re-analysis of the deposited data

How the results depend on the processing

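No paired analysis was possible because each group has 1 array. With no minimum level, 7 of 35 cytokine genes were at least 2-fold lower and 1 (CCL2) higher, against 4 and 0 of 20 as reported; PTGS2, IL1A and CXCR4 were the added lower genes, all with a mean under 6. With each gene's probe sets averaged, 2 of the 15 genes then measured (IL24 and IL1B) were 2-fold lower. At 1.5-fold, 8 were lower and 2 higher. Other minimum levels (5, 7, or either array at 6), leaving out probe sets ending in _x_at or _s_at, levels under 6 taken as 6, median centring and the SOD2 probe sets shared with SOD2-OT1, the last chosen after seeing the data, gave 3 to 6 lower genes and 0 higher. CCL5 was not among them at a minimum of 7, with levels under 6 taken as 6 or with centring. IL24 and IL1B were 2-fold lower in all of these settings. The median ran from -0.36 to -0.30. All 171 single-gene values moved by less than 1.5-fold, and the sign changed in 2 genes, CSF1 and IL6ST. Most of these settings kept the probe set of a gene, so its difference could hardly move. These values therefore say little on how firm a difference is. With the shared probe sets added, SOD2 went from -0.60 to -0.03. RMA signals carry no detection call, so genes under 6 were not told apart from background here, and 1 array a group gives no spread. The minimum of 6 is a chosen cutoff and not a measured background level. Of 16 genes of unrelated tissues 15 were under it, and the median of the 16 was 4.01 in the siKMO array and 3.74 in the siControl array.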
